A study of Mus musculus with 6 samples.

Results

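Solute carriers are membrane proteins that move nutrients, ions, metals and metabolites across membranes, and their genes carry symbols of the form Slc, a family number, the letter a and a member number. Of the 9088 genes listed in the deposited count table, 135 had a symbol that begins in this form, and these were taken as the solute carrier (SLC) set. They belonged to 37 SLC families. Of the symbols, 4 name proteins that are not transporters, namely the scaffold genes Slc9a3r1 and Slc9a3r2, the adaptor gene Slc4a1ap and the gene Slc7a6os on the strand opposite Slc7a6, which left 131 transporter genes. GENCODE M21 annotates 334 protein-coding genes with such a symbol, of which 130 were matched here. Every listed gene reached at least 6 unique molecular identifiers (UMIs) in some library, and the other annotated SLC genes are not analysed here.

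The RNA came from tuft cells, rare chemosensory epithelial cells, that were sorted from thymi of young male wild-type (WT) mice and spun into aggregates. All were cultured for 12 h, and for another 24 h after the medium was replaced. Libraries of the rIL-13 group had 20 ng/mL recombinant interleukin 13 for 24 h, those of the vehicle group had PBS for 24 h, and each group had 3 libraries. Bulk MARS-seq counts UMIs at the 3' ends of polyadenylated transcripts. The labels do not say whether replicates were separate cultures or animals, so a p-value here speaks to the scatter of the 6 libraries, and that scatter may be technical.

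The vehicle libraries held 394513 to 489919 UMIs over the listed genes and the rIL-13 libraries 248028 to 295614, so rare transcripts were counted less precisely under rIL-13. Tuft cell markers were present: 22 of 23 were listed, and together they took 0.679 to 0.782% of UMIs under vehicle and 0.629 to 1.18% under rIL-13. Of the fibroblast markers, 10 of 12 were listed, at 0.337 to 0.575% of UMIs under vehicle and 0.263 to 0.472% under rIL-13. None of 9 thymocyte markers and none of 4 erythroid markers was listed. Muscle-like markers took 0.0233 to 0.139% under vehicle and 0.0145 to 0.0247% under rIL-13, so the groups overlapped. In such bulk samples, fewer cells of a type and less RNA per cell cannot be told apart.

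SLC proteins differ in their energy source and in the membrane they serve. Facilitative carriers such as the GLUT glucose transporters let a solute run down its gradient, whereas many amino acid and phosphate transporters of the plasma membrane couple uptake to the sodium gradient kept by the sodium-potassium pump. Family 25 lies almost wholly in the inner mitochondrial membrane, where it exchanges ADP for ATP and brings in phosphate and fuels, and other families serve lysosomes, the Golgi apparatus or the endoplasmic reticulum.

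Mitochondrial carriers dominated the set. The 3 most abundant members were Slc25a4 and Slc25a5, the ADP/ATP carriers ANT1 and ANT2, and Slc25a3, the mitochondrial phosphate carrier. These proteins supply the ATP synthase with its substrates and export its product. The bases around the annotated start sites of these 3 genes are shown because these genes alone held 31.9 to 38.5% of all SLC UMIs in a library. The sequences are from RefSeq, build GRCm38.p6, and run from 250 bases before to 50 bases after the start that RefSeq annotates, read 5' to 3' on the gene's strand. The GENCODE gene bounds given after them put the start elsewhere, upstream of RefSeq's for Slc25a4 and Slc25a3 and downstream of the whole window for Slc25a5. That of Slc25a4 is chr8:46211013-46211312 on the minus strand, that of Slc25a3 is chr10:91123918-91124217 on the minus strand, and that of Slc25a5 is chrX:36795347-36795646 on the plus strand. Capitals mark matches, on either strand, to TATAA, to the GC box GGGCGG and to the core of the NRF1 motif, searched as GCGCA followed by any base and GCGC. NRF1 is a transcription factor of many mitochondrial genes.
Slc25a4 promoter: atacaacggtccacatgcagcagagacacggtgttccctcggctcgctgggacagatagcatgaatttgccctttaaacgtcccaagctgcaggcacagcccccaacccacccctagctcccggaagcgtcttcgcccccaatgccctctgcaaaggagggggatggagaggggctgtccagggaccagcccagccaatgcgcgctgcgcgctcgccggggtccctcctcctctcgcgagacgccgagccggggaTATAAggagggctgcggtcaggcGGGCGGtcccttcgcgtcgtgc
Slc25a3 promoter: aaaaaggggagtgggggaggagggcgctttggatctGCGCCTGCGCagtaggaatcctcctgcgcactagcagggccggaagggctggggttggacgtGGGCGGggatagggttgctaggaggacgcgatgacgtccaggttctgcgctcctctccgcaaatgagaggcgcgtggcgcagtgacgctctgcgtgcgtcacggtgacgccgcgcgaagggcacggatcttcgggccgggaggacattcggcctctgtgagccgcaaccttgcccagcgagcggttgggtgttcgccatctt
Slc25a5 promoter: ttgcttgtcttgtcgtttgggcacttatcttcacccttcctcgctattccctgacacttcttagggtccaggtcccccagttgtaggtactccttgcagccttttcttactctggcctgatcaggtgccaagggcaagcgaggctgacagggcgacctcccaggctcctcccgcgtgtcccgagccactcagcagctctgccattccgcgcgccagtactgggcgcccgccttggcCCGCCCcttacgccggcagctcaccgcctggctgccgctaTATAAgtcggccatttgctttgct
Each window held 1 GC box. The windows of Slc25a4 and Slc25a5 each held 1 TATAA and no NRF1 core, and that of Slc25a3 held 1 NRF1 core and no TATAA. Over all 32851 windows in the table, 24.9% held TATAA, 35.7% the GC box and 4.6% the NRF1 core. Over the 146 windows of the 105 members found there, 16 held TATAA, while the shares were 70.5% for the GC box and 4.79% for the NRF1 core. A match describes the letters and does not show that a factor binds.

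In GENCODE M21 coordinates (GRCm38, mm10), Slc25a4 lies on chromosome 8 at 46206797 to 46211284, Slc25a3 on chromosome 10 at 91116574 to 91124059 and Slc25a5 on chromosome X at 36795651 to 36798807. All are protein-coding. Slc25a4 had 522, 491 and 661 UMIs under vehicle (replicates 1, 2 and 3, the order used throughout) and 372, 305 and 213 under rIL-13. In CPM, which are UMIs scaled to a common library size by TMM, a method that sets the scale by the bulk of genes, this was 1263 ± 169 CPM under vehicle and 1051 ± 221 under rIL-13 (SD, n = 3 each). The lowest library was rIL-13 replicate 3 and the groups overlapped.

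Slc25a3 had 404, 523 and 606 UMIs under vehicle and 337, 257 and 249 under rIL-13, or 1146 ± 85.3 and 1004 ± 149 CPM. Slc25a5 had 517, 478 and 494 UMIs under vehicle and 275, 283 and 228 under rIL-13, or 1136 ± 196 and 935 ± 28.1 CPM. Every rIL-13 library lay below every vehicle library for Slc25a5, while the groups overlapped for Slc25a3. Because each transcript gives one 3' tag whatever its length, CPM is compared between genes here without division by length. The order of these 3 genes differed between libraries.

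The balance between the ADP/ATP carriers varied from library to library within both groups. Slc25a4, the isoform typical of heart and skeletal muscle, made up 50.2, 50.7 and 57.2% of the pair's UMIs in vehicle replicates 1 to 3, and 57.5, 51.9 and 48.3% under rIL-13. The muscle gene Myl1 had 0, 8 and 471 UMIs under vehicle and 10, 23 and 0 under rIL-13, so one of the libraries with a high Slc25a4 share, vehicle replicate 3, also held nearly all Myl1. Its part in the share was not tested. The last 300 bases of the Slc25a5 transcript share a stretch of 50 bases with the annotated gene Slc25a5-ps, so UMIs of either gene could have been counted as the other or lost. Slc25a3 and Slc25a4 shared no such stretch with another annotated gene.

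**Figure D1:**
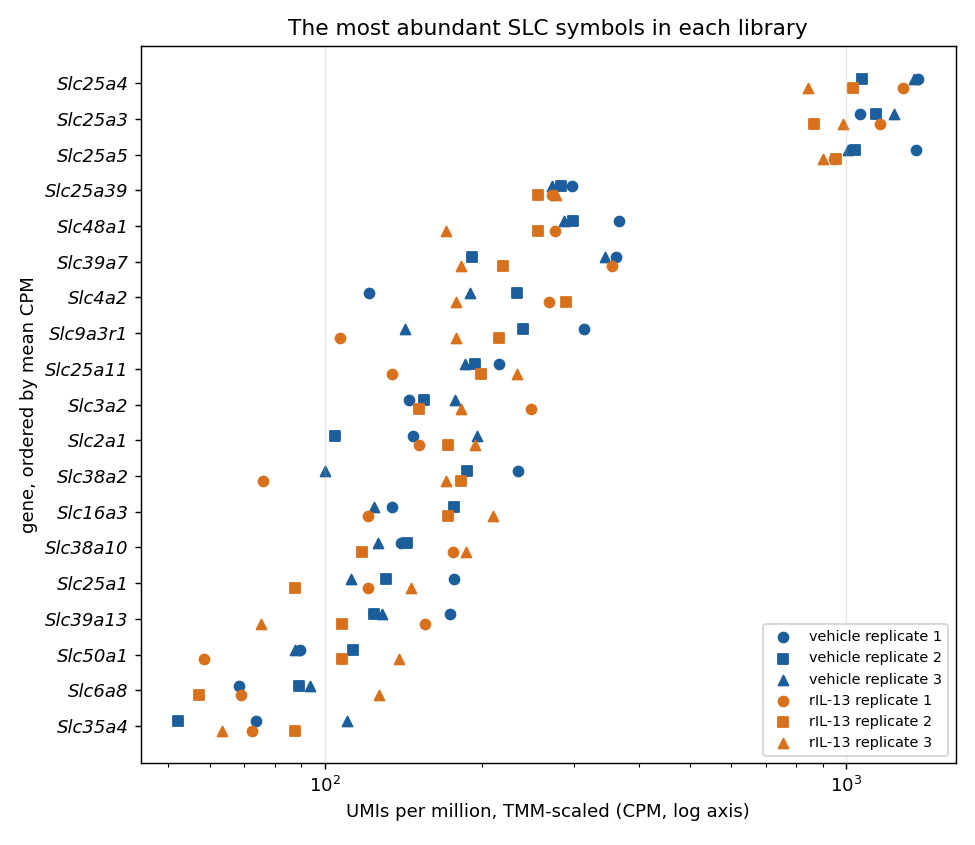
Level of the most abundant SLC symbols in each of the 6 libraries, as TMM-scaled CPM on a log axis, with genes from top to bottom by mean level. The 3 mitochondrial carriers at the top lie apart from all others, and the vehicle (blue) and rIL-13 (orange) libraries are intermixed for most genes.

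Beyond these 3, 16 members in all had a mean above 100 CPM, 34 were above 50 and 54 were under 20. The median member had a mean of 24.97 CPM, against 33.8 over all listed genes. At least 1 UMI was found in every vehicle library for 128 of the 135 members and in every rIL-13 library for 120.

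The other abundant mitochondrial carriers overlapped between the groups. Slc25a39, which serves the import of glutathione, had 113, 130 and 134 UMIs under vehicle and 79, 76 and 70 under rIL-13, and its highest CPM was 1.16 times its lowest over the 6 libraries. Slc25a11, the oxoglutarate and malate carrier, had 198 ± 15.8 CPM under vehicle and 189 ± 50.3 under rIL-13. Slc25a1, the citrate carrier, had 140 ± 33.2 and 118 ± 29.5 CPM. Of 47 annotated genes of family 25, 26 are analysed here.

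The remaining mitochondrial carriers each had at most 37 UMIs in a library. Slc25a17, the family's peroxisomal member, had 12, 33 and 37 under vehicle and 13, 18 and 21 under rIL-13. Slc25a20, which carries acylcarnitines for fatty acid oxidation, had 13, 30 and 34 against 16, 9 and 10. Among iron and heme genes, Slc25a28 (mitoferrin 2) had 8, 33 and 20 against 13, 27 and 18, and Slc25a38, which brings in glycine for heme synthesis, had 12, 18 and 29 against 11, 13 and 15. The aspartate-glutamate carriers Slc25a12 and Slc25a13 were at like levels, with 9, 16 and 18 UMIs for Slc25a12 and 6, 18 and 14 for Slc25a13 in the vehicle libraries. Slc25a51, the carrier of NAD, had 14, 9 and 19 against 7, 10 and 5. All of these overlapped between groups.

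As a class, the mitochondrial carriers took 0.487, 0.458 and 0.490% of all UMIs under vehicle and 0.444, 0.427 and 0.409% under rIL-13. All 3 rIL-13 values lay below all 3 vehicle values, which was the case for 1 of the 10 classes of the set, and no test was made of such a sum. By family, 6 of 37 did not overlap in their share of UMIs. Families 10, 25, 31, 33 and 48 were lower under rIL-13, and family 22, classed with carriers of organic ions, was higher. Families 33 and 48 have 1 listed gene each, Slc33a1 and Slc48a1, which are counted again below. Of all single listed genes, 11.1% did not overlap in CPM, and no such rate was computed for family sums. Family 22 took 0.00786, 0.0127 and 0.0118% under vehicle and 0.0149, 0.0198 and 0.0165% under rIL-13 over 5 genes. Each of these 5 genes taken alone overlapped between the groups in CPM. The 3 most abundant carriers took 0.366, 0.326 and 0.359% under vehicle and 0.333, 0.294 and 0.278% under rIL-13, which overlap. The other 23 carriers took 0.128 ± 0.00580% under vehicle and 0.125 ± 0.0120% under rIL-13 (SD, n = 3 each). Of all SLC UMIs, family 25 held 50.9 ± 0.331% under vehicle and 48.4 ± 2.0% under rIL-13.

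**Figure D2:**
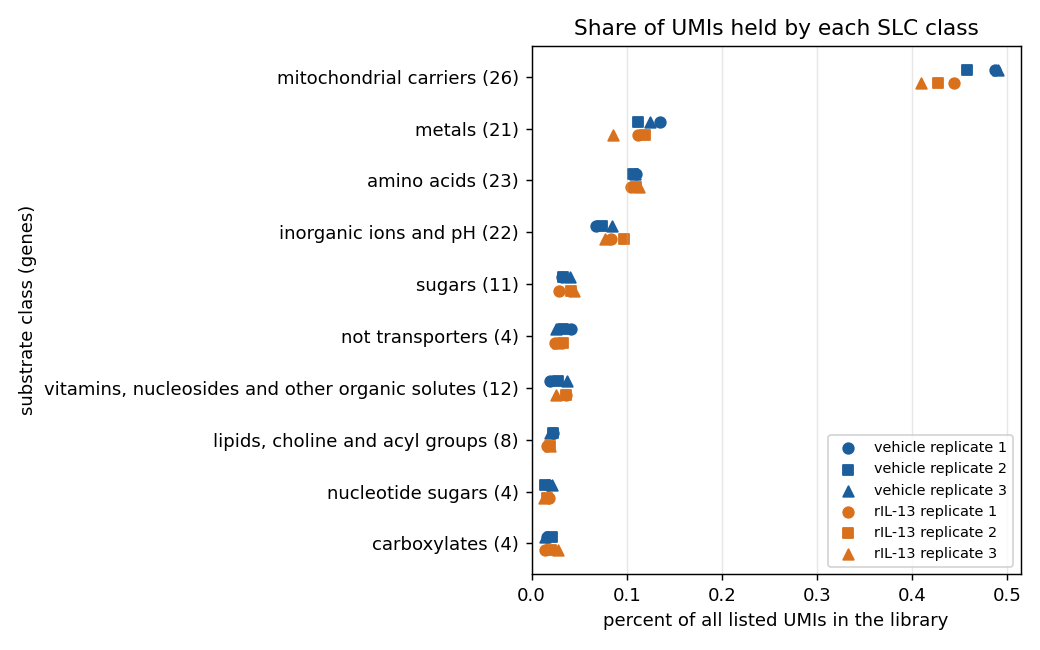
Percent of all listed UMIs that each substrate class of SLC genes took in each library, with the number of genes in parentheses and each point 1 library. Mitochondrial carriers took 0.409 to 0.490%, more than any other class in every library, and theirs is the single class whose vehicle and rIL-13 points do not overlap.

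Metal and amino acid transporters came next, in that order under vehicle and in the reverse order by mean under rIL-13. Metal transporters held 0.124 ± 0.0114% of UMIs under vehicle and 0.105 ± 0.0181% under rIL-13 over 21 genes. Their most abundant members were Slc48a1 and Slc39a7. Slc48a1 had the higher mean of the pair under vehicle and Slc39a7 under rIL-13. Each had a lower mean under rIL-13 than under vehicle, and for Slc39a7 these were 252 and 299 CPM. Slc48a1, which moves heme out of endosomes and lysosomes, had 139, 137 and 141 UMIs under vehicle and 80, 76 and 43 under rIL-13. That was 317 ± 42.7 against 234 ± 56.2 CPM, and the rIL-13 libraries lay below the vehicle libraries by a narrow gap, 276 CPM at most against 287 at least. The gene Hdac7 overlaps the 3' end of Slc48a1 on the opposite strand, and 15 other members have such a partner, among them Slc2a1, Slc39a13, Slc12a4, Slc20a1, Slc7a5, Slc6a9 and Slc31a1. Slc39a7, a zinc transporter of the endoplasmic reticulum that releases zinc to the cytosol, had 137, 88 and 169 UMIs under vehicle and 103, 65 and 46 under rIL-13. The annotated gene Gm20427 overlaps its 3' end on the same strand, so the counts of Slc39a7 are uncertain. Slc39a13, another intracellular zinc transporter, had 142 ± 27.6 and 113 ± 40.2 CPM.

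Zinc transporters of family 39 were more abundant than those of family 30. The 9 members of family 39, which raise cytosolic zinc and include Slc39a1 of the plasma membrane (7, 18 and 15 UMIs under vehicle and 8, 17 and 6 under rIL-13), summed to 735, 542 and 666 CPM under vehicle and 679, 623 and 439 under rIL-13. Family 30 is classed here as carrying zinc out of the cytosol, which need not hold for each of its members. Its 5 members summed to 163, 172 and 161 CPM under vehicle and to 79.3, 155 and 119 under rIL-13. Every rIL-13 sum of family 30 was below every vehicle sum in CPM, but not as an unscaled percent of UMIs, where rIL-13 replicate 2 (0.0160%) exceeded vehicle replicate 1 (0.0157%). Within it, Slc30a6, a Golgi zinc transporter, had 17, 14 and 19 UMIs under vehicle and 7, 7 and 3 under rIL-13, and Slc30a5, its partner in a heterodimer, had 13, 18 and 12 against 1, 5 and 8. Slc30a6 did not overlap between groups and Slc30a5 did. Both counts are small and neither gene passed the test given below. The zinc exporter of the plasma membrane, Slc30a1, had 2, 6 and 2 UMIs under vehicle and 1, 6 and 4 under rIL-13, and Slc11a2, which takes up divalent iron, had 15, 20 and 24 against 18, 9 and 8.

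Amino acid transporters took a like share in both groups, 0.108 ± 0.00176% of UMIs under vehicle and 0.109 ± 0.00425% under rIL-13 over 23 genes. Their most abundant member was Slc3a2, the CD98 heavy chain that carries light chains of family 7 to the surface, with 55, 71 and 87 UMIs under vehicle and 72, 45 and 46 under rIL-13. All family 7 transporters together summed to 161, 98.0 and 153 CPM under vehicle and 121, 135 and 111 under rIL-13, of which Slc7a5, the LAT1 light chain for large neutral amino acids, had 20, 14 and 30 UMIs against 22, 10 and 11. Slc38a2, a sodium-coupled transporter of glutamine and alanine, ranged widely, with 89, 86 and 49 UMIs under vehicle and 22, 54 and 43 under rIL-13. Its lowest CPM in each group fell in vehicle replicate 3 and rIL-13 replicate 1. The taurine transporter Slc6a6 had 36, 33 and 29 UMIs against 21, 17 and 24, and the glycine transporter Slc6a9 had 11, 11 and 16 against 4, 4 and 3, with no overlap in CPM. The glutamine transporter Slc1a5 had 77.0 ± 13.3 and 61.3 ± 30.5 CPM, the creatine transporter Slc6a8 had 83.8 ± 13.5 and 84.3 ± 37.1, and Slc38a10 had 137 ± 9.11 and 160 ± 36.7.

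Transporters of inorganic ions took 0.0753 ± 0.00809% of UMIs under vehicle and 0.0862 ± 0.0103% under rIL-13 over 22 genes. Slc4a2, the chloride-bicarbonate exchanger AE2, led them with 46, 107 and 93 UMIs under vehicle and 78, 86 and 45 under rIL-13, and vehicle replicate 1 was its lowest library. The gene Fastk overlaps the 3' end of Slc4a2 on the opposite strand. Whether counting used strand is not given in the sources used here, so reads of such pairs may be mixed. Among the sodium-phosphate cotransporters, Slc20a2 had 25, 24 and 29 UMIs under vehicle and 26, 24 and 20 under rIL-13, which at the smaller depth of the rIL-13 libraries was 59.1 ± 6.79 against 83.2 ± 5.62 CPM, with no overlap. Its relative Slc20a1 went the other way, at 65.9 ± 25.7 and 43.5 ± 10.3 CPM with overlap, and the sum of the pair was 125 ± 32.3 and 127 ± 14.1 CPM. The sodium-potassium-chloride cotransporter Slc12a2 had at most 9 UMIs in a library, while the potassium-chloride cotransporters Slc12a4 and Slc12a7 had 63.2 ± 16.3 and 70.4 ± 22.6 CPM under vehicle and 58.4 ± 19.8 and 67.1 ± 29.9 under rIL-13.

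Glucose and lactate transporters were each led by 1 gene. Slc2a1, the basal glucose transporter GLUT1, had 56, 48 and 96 UMIs under vehicle and 44, 51 and 49 under rIL-13, and made up most of the family 2 sum of 209 ± 41.4 and 204 ± 22.3 CPM. Slc16a3, the lactate exporter MCT4, had 51, 81 and 61 UMIs under vehicle and 35, 51 and 53 under rIL-13, out of family 16 sums of 177 ± 37.6 and 203 ± 66.2 CPM. Bsg, which encodes the chaperone that brings MCT4 to the surface, had a log2 fold change of -0.03 ± 0.20 (SE; edgeR adjusted p = 0.995). The sugar transporter Slc50a1 had 96.8 ± 14.3 CPM under vehicle and 102 ± 40.3 under rIL-13. The other leading members of these classes were scarce, with at most 15 UMIs in a library for Slc37a1, a sugar phosphate carrier, 8 for Slc16a5 and 9 for Slc16a13.

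Slc2a3, the high-affinity glucose transporter GLUT3, had 6, 21 and 2 UMIs under vehicle and 1, 0 and 0 under rIL-13. Vehicle replicate 2 held most of them. Of 8 myeloid and dendritic markers, 2 were listed, and took 0.00531 to 0.0183% of UMIs under vehicle and 0.00161 to 0.0132% under rIL-13. Csf1r, one of these, had 61, 77 and 25 UMIs under vehicle and 5, 38 and 3 under rIL-13, and their part in the counts of Slc2a3 was not tested.

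The smaller classes held a few percent of SLC UMIs each. Nucleotide sugar transporters of the Golgi apparatus took 1.90 ± 0.334% of SLC UMIs under vehicle and 1.78 ± 0.250% under rIL-13 and were led by Slc35a4 and Slc35a2, the UDP-galactose transporter, ahead of Slc35a1, which carries CMP-sialic acid (8, 8 and 14 UMIs against 8, 4 and 2). Carriers of lipids, choline and acyl groups took 2.27 ± 0.237 and 2.07 ± 0.236%. Slc44a2, a choline transporter, led them with 32, 33 and 38 UMIs against 21, 17 and 18, and Slc44a4, its relative, had 12, 15 and 7 against 4, 11 and 5. Of these, Slc33a1, which brings acetyl-CoA into the endoplasmic reticulum, had 12, 25 and 22 UMIs under vehicle and 5, 8 and 7 under rIL-13, with no overlap in CPM. Carriers of vitamins, nucleosides and other organic solutes took 3.00 ± 0.916 and 3.70 ± 0.556%. Slc22a17, a receptor for the siderophore-binding protein lipocalin 2, had 6, 20 and 22 UMIs under vehicle and 20, 25 and 10 under rIL-13. Its relative Slc22a18 had 11, 20 and 18 against 12, 11 and 15. The nucleoside transporter Slc29a1 was among the least steady, with 8, 23 and 42 UMIs under vehicle and 20, 9 and 2 under rIL-13, a range of 10.8 times in CPM. The folate transporters Slc19a1 and Slc46a1 had at most 13 and 11 UMIs in a library, and Slc23a2, which takes up ascorbate, had 5, 9 and 8 against 6, 7 and 3. Of the members that are not transporters, Slc9a3r1, the scaffold NHERF1 of apical transporters, had 119, 110 and 70 UMIs under vehicle and 31, 64 and 45 under rIL-13.

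No SLC gene passed the test of rIL-13 against vehicle. Of 135 members, 62 passed the filter on low counts and were tested, and 0 passed at an adjusted p under 0.05 (edgeR quasi-likelihood F test with Benjamini-Hochberg adjustment), against 3 of all 5135 genes tested, or 0.0584%. The smallest adjusted p of a member was 0.860. At an unadjusted p under 0.05 there were also 0 of 62 members, while 5.47% of all tested genes passed. DESeq2 gave 0 members past the adjusted threshold and 2 at an unadjusted p under 0.05, and limma voom gave 0 and 0. For these fits and for the authors' values given next, the share of all genes at the unadjusted cut was not computed. In the authors' deposited table, 0 of the 135 members had an adjusted p under 0.05 and 2 had an unadjusted one, with the smallest for Slc2a3, at p = 0.00865 and an adjusted p of 1.0 in the authors' deposited table.

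Fold changes leaned to the negative side. Of the 62 tested members, 41 had a log2 fold change below 0 and 21 above, so 66.1% were below 0, against 50.1% of all tested genes. The median was -0.11, against -9.9e-04 over all tested genes. By class, 13 of 18 tested mitochondrial carriers were below 0 (median -0.18), as were 8 of 11 metal transporters (-0.24), 5 of 9 amino acid transporters (-0.01), 5 of 8 ion transporters (-0.09), all 3 lipid and choline carriers (-0.22) and both nucleotide sugar transporters (-0.13). Both tested sugar transporters were above 0 (median 0.13), as was the single tested carboxylate transporter (0.20), and vitamin and nucleoside carriers were split 2 and 2 (0.05). Without rIL-13 replicate 1 or rIL-13 replicate 3 the median over tested members was -0.06 and -0.05. In the same fit, 8 of 9 tested fibroblast markers (median -0.42) and 4 of 5 mesothelial markers (-0.75) were below 0, and 15 of 19 tuft markers (0.49) were above. Their part in the SLC values was not tested. Genes of a class were measured in the same 6 libraries and are not independent, so these counts carry no test.

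**Figure D3:**
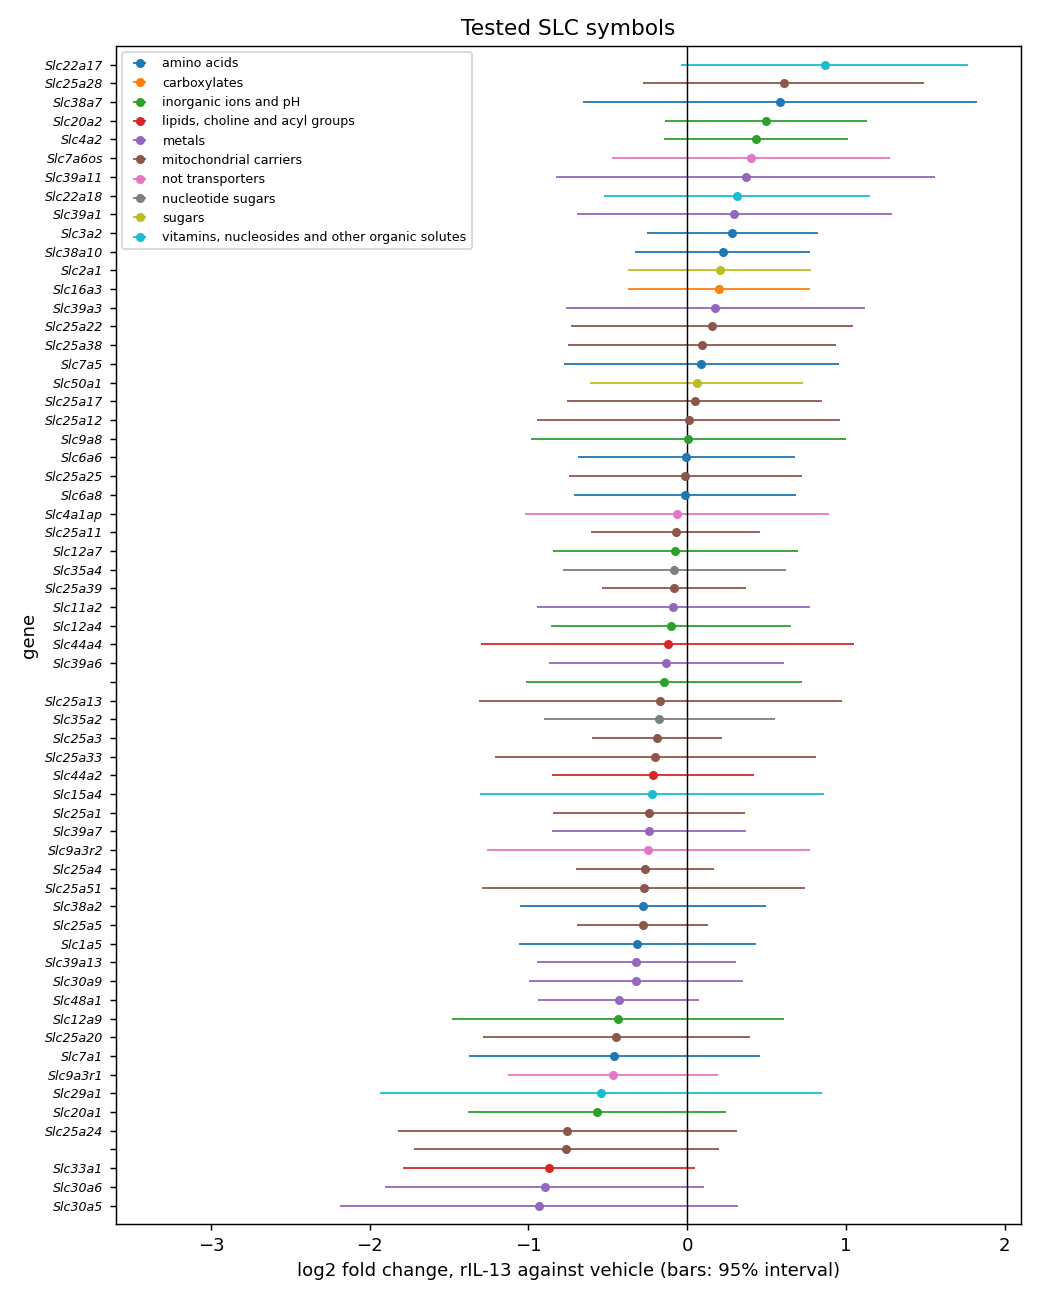
Log2 fold change of each of the 62 tested SLC symbols, under rIL-13 against vehicle, as points with 95% intervals from the edgeR fit, coloured by class and ordered by value, with names for nearly all. Every interval includes 0, and intervals widen for genes with few UMIs.

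The members with the smallest p on the higher side began with Slc22a17, whose log2 fold change was 0.87 with a standard error of 0.43 over 3 libraries a group (edgeR adjusted p = 0.860); standard errors follow ± below. Slc20a2 followed at 0.50 ± 0.30 and Slc4a2 at 0.44 ± 0.28 (edgeR adjusted p = 0.864 and 0.869). Slc25a28, the iron carrier mitoferrin 2, was at 0.61 ± 0.42, Slc3a2 at 0.29 ± 0.26, Slc38a7 at 0.59 ± 0.59, Slc7a6os at 0.40 ± 0.42 and Slc38a10 at 0.22 ± 0.26. With 1 library left out, Slc22a17 ranged from 0.54 (without vehicle replicate 1) to 1.11 (without rIL-13 replicate 3) and Slc4a2 from 0.22 (without vehicle replicate 1) to 0.65 (without vehicle replicate 2). Only Slc20a2 among these 8 had no overlap between the groups.

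On the lower side Slc33a1 came first, at -0.87 ± 0.44, followed by Slc30a6 at -0.90 ± 0.48 and Slc48a1 at -0.43 ± 0.24 (edgeR adjusted p = 0.860 for each). Slc30a5 was at -0.93 ± 0.60, Slc9a3r1 at -0.47 ± 0.31, Slc25a24, the ATP-magnesium and phosphate carrier, at -0.76 ± 0.51 and Slc20a1 at -0.57 ± 0.39. With 1 library left out, Slc48a1 ranged from -0.58 (without rIL-13 replicate 1) to -0.25 (without rIL-13 replicate 3) and Slc9a3r1 from -0.72 (without vehicle replicate 3) to -0.20 (without vehicle replicate 1). These are values of genes that did not pass.

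For the abundant carriers the interval was narrow. The 95% interval of the log2 fold change was -0.70 to 0.17 for Slc25a4, -0.60 to 0.22 for Slc25a3, -0.70 to 0.13 for Slc25a5 and -0.54 to 0.37 for Slc25a39. For 30 of the 62 tested members the interval lay within a 2-fold change either way, and for 61 it lay within a 4-fold change. Smaller changes in the other members were not detectable at this depth with 3 libraries per group.

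**Figure D4:**
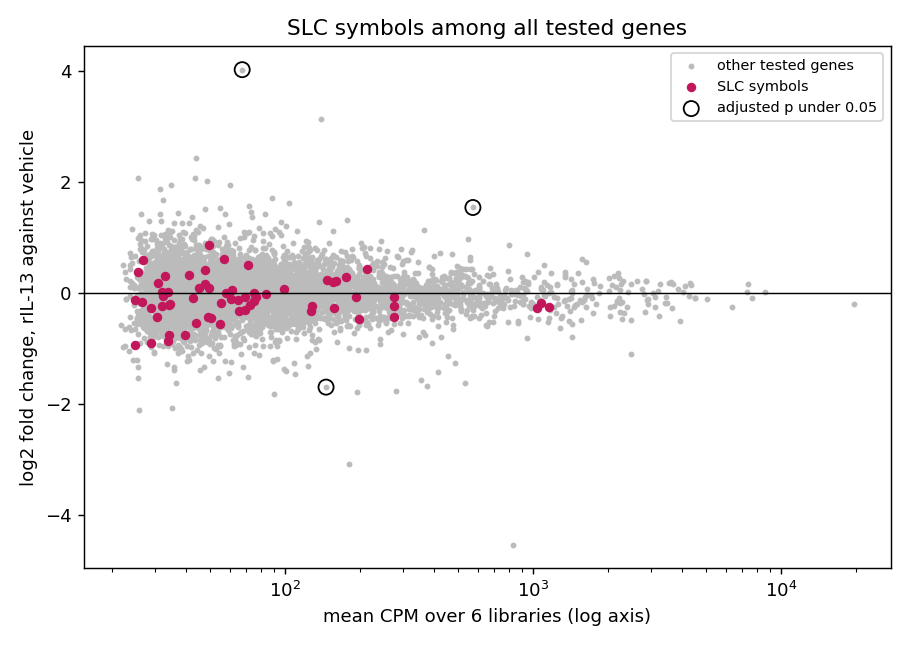
Mean CPM over the 6 libraries (log axis) against the log2 fold change under rIL-13, for the 62 tested SLC symbols (magenta) and the other tested genes (grey), with rings at an adjusted p under 0.05. No SLC symbol is ringed, and their points lie within the cloud of other genes at each level.

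For 5 of the 62 tested members, vehicle and rIL-13 libraries were fully separated in CPM, with Slc20a2 higher and Slc25a5, Slc48a1, Slc33a1 and Slc30a6 lower under rIL-13. This was 8.06% of the tested members, against 11.7% of all tested genes. By direction, 1 member against 5.76% of all tested genes lay higher and 4 members against 5.96% lay lower. Over all listed members it was 15 of 135, or 11.1%, against 11.1% of all listed genes, so separation was no more common in the set than outside it.

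Members under the filter were fitted without it, on all 9088 genes. Of the 135 members, 0 passed at an adjusted p under 0.05 in that edgeR fit, against 0.0770% of all genes, and 4 had an unadjusted p under 0.05, or 2.96%, against 5.38% of all genes. Of these 4, 1 was higher and 3 were lower under rIL-13, against 2.93 and 2.45% of all genes. Slc2a3 had the smallest, with an unfiltered log2 fold change of -3.86 ± 1.17 (edgeR adjusted p = 0.443), a value that depends on the fit's prior count because 2 libraries held none. Slc24a5, a potassium-dependent sodium-calcium exchanger known from melanosomes, had 3, 7 and 6 UMIs under vehicle and 8, 8 and 12 under rIL-13 (1.46 ± 0.56, edgeR adjusted p = 0.799). The gene Myef2 overlaps its 3' end on the opposite strand. Slc10a3, an orphan relative of bile acid transporters, had 16, 16 and 12 against 7, 3 and 1 (-1.35 ± 0.59, edgeR adjusted p = 0.854), and the gene Ubl4a overlaps its 3' end on the same strand. Slc7a6, a light chain for cationic and neutral amino acids, had 7, 11 and 9 against 1, 3 and 2 (-1.47 ± 0.72, edgeR adjusted p = 0.896). The choline transporter Slc44a1 had 0, 2 and 1 UMIs under vehicle and 2, 7 and 3 under rIL-13 (2.49 ± 1.23, edgeR adjusted p = 0.896).

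**Figure D5:**
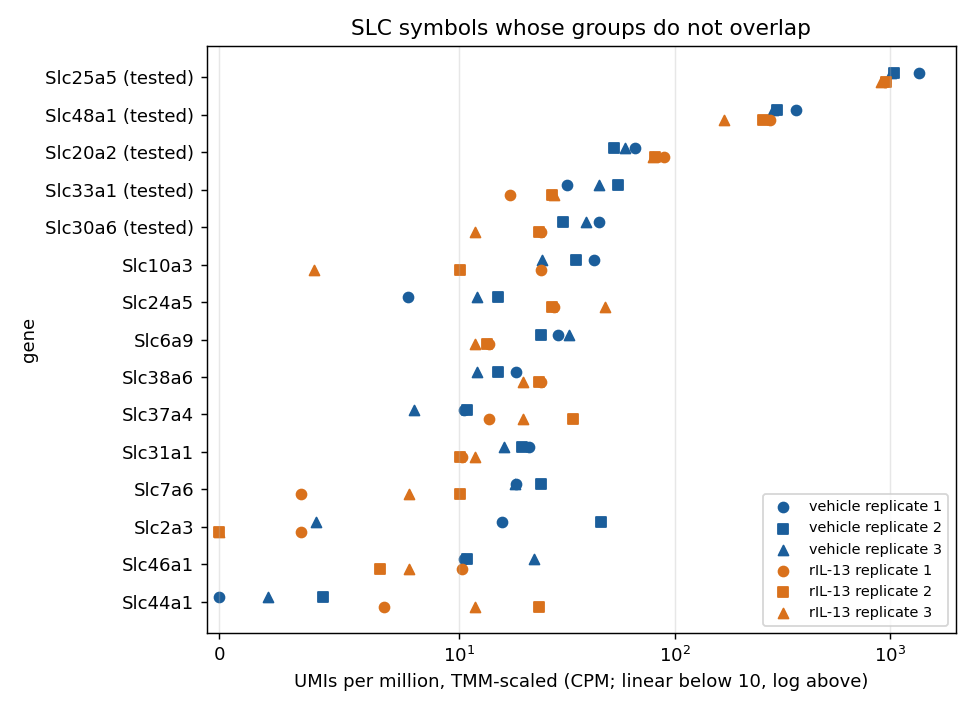
CPM in each library for the 15 listed SLC symbols whose vehicle (blue) and rIL-13 (orange) libraries do not overlap, on an axis that is linear below 10 and logarithmic above. The 5 tested genes are marked, and for several of the others the gap between groups is a few UMIs.

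SLC genes known to respond to the amino acid stress factor ATF4 showed no called member. Of 9 in that list, 7 were listed and 5 tested, with 2 above and 3 below 0 (median -0.28), among them the cationic amino acid transporter Slc7a1 at -0.46 ± 0.44 and Slc1a5 at -0.31 ± 0.36 (edgeR adjusted p = 0.926 and 0.939). Of the 3 hypoxia-responsive SLC genes, Slc2a1 and Slc16a3 were tested, at 0.20 ± 0.27 each (edgeR adjusted p = 0.941 for each), while Slc2a3 was under the filter and had -3.86 in the unfiltered fit. The zinc-responsive metallothionein genes Mt1 and Mt2 were at 0.09 ± 0.38 and -0.29 ± 0.54, with 523 and 160 UMIs in vehicle replicate 2, more than in any other library.

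Transport genes outside the symbol rule gave no called gene either. Of 17 further genes whose symbols begin with Slc, 7 were tested, 2 of them above 0, with a median of -0.04. The ATP-driven pumps for sodium, potassium and protons took 0.481 ± 0.0542% of UMIs under vehicle and 0.476 ± 0.0633% under rIL-13, and 7 of 19 tested were above 0 (median -0.04). Among them was Atp1b1 (0.17 ± 0.25), a subunit of the sodium-potassium pump. Of the calcium and metal pumps, 2 of 4 tested genes were above 0, and Atp2a3, a calcium pump of the endoplasmic reticulum, was at 0.47 ± 0.29. Of the ABC transporters, which are driven by ATP, 8 of 10 tested were above 0 (median 0.40). Abca7, a lipid transporter, was at 1.21 ± 0.40 (edgeR adjusted p = 0.662). Mitochondrial solute channels and carriers without an SLC symbol had 7 of 12 above 0 (median 0.03), the solute channels 3 of 6 (median 0.06), and the other facilitator genes 3 of 6 (median -0.14). The pyruvate carrier subunits Mpc1 and Mpc2 were at -0.21 ± 0.32 and 0.30 ± 0.22. Among the mitochondrial porins, Vdac1 and Vdac2 were at -0.34 ± 0.23 and -0.21 ± 0.21. These are not all the porins in that list, and their values do not give a direction for the porins as a group.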

How the data were processed

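UMI counts per gene were deposited for 6 bulk MARS-seq libraries. The submitters' processing notes name bcl2fastq, cutadapt, STAR 2.5.2b, HTSeq and DESeq2 with build mm10, with no role or order. The deposited count columns were used for every test. The log2 fold changes and p-values of the authors' deposited table are given as theirs, with a positive sign for a higher value with rIL-13. Groups and replicate numbers came from the sample titles.

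Counts were fitted on the whole table with edgeR 4.0.16 (R 4.3.3): quasi-likelihood F test with TMM factors, robust estimation, group as the single term and the default filter, which kept 5135 genes with 93.8% of UMIs. Adjusted p-values run over all genes fitted, two-sided, with a threshold of 0.05. What edgeR terms the biological coefficient of variation was 24.9% over the 6 libraries, whose scatter may be technical. Standard errors are those implied by the F statistic, and 95% intervals use its degrees of freedom. CPM values are scaled by TMM factors. Shares, sums and list medians carry no test. The fits were tested on simulated data. Intervals and standard errors do not cover loss before sequencing.

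A few members and related genes are not reported here. The members and lists were chosen with earlier results of these data known. Members named are those past the threshold, the 20 most abundant, the 8 of smallest p above and below 0, the 3 most abundant of each class, those whose groups do not overlap and a fixed list. Others (Slc24a5, Slc10a3, Slc7a6 and the scarcer members) were chosen after their values were seen. Classes follow the SLC family number, so a member with another substrate stays in its family's class. Coordinates are from GENCODE M21, in which 134 of 135 symbols were found. Alternatives were DESeq2 1.42.0, limma voom (limma 3.58.1), a replicate term, other filters, thresholds and scaling factors, totals without ribosomal protein genes, and leaving out libraries. Python 3.11.15 with matplotlib 3.10.9 made the figures.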

Additional observations from a re-analysis of the deposited data

How the results depend on the processing

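The count of SLC members past the threshold was 0 with DESeq2, limma voom, other scaling factors, no filter, at least 10 UMIs in 3 libraries, an adjusted threshold of 0.1, totals without ribosomal protein genes and each library left out in turn. Without rIL-13 replicate 1, 76 members were tested, the smallest edgeR adjusted p was 0.263 and 7 members had an unadjusted p under 0.05. The share of all 6099 genes tested in that fit at this unadjusted cut was not computed, so the 7 have no background here. Counts chosen after seeing the data were 4 at an unadjusted p under 0.05 with no filter, and 0 past the threshold when both rIL-13 replicate 1 and vehicle replicate 3 were left out. With a replicate block the count was also 0, while genes called in the whole table went from 3 to 13. That whole-table count was 0 with limma voom, 6 with DESeq2, 7 with no filter, 23 without vehicle replicate 3, 29 without rIL-13 replicate 1, 31 without both and 1 or 2 without any other library. Deviations from the group means correlated at -0.0714, 0.0776 and -0.222 for numbers 1, 2 and 3. Libraries of unlike number were not compared in this way, so these values do not settle whether the numbers pair libraries.

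The median log2 fold change of tested members was -0.13 to -0.05 with a library left out. All SLC members together took 0.949, 0.902 and 0.966% of UMIs under vehicle and 0.882, 0.921 and 0.841% under rIL-13, which overlap. The rIL-13 minus vehicle difference in this share, -0.0577 percentage points, was -0.0775 to -0.0376 with a library left out. With at least 3 UMIs, 112 members were found in every vehicle library and 91 in every rIL-13 library. Among 39 named tested genes, 586 of 612 values kept their sign and their side of the threshold, and none passed. Signs turned for Slc50a1 under limma voom (-0.014), Slc6a8 with library totals alone (0.015), and, with that same pair of libraries left out, Slc25a11 (0.071), Slc6a8 (0.19), Slc35a4 (0.27) and Slc7a5 (-0.10). The cause was not tested. With 1 library left out, the values ran from -0.25 to 0.11 for Slc25a11, -0.0037 to 0.46 for Slc2a1, -0.56 to 0.016 for Slc38a2, -0.22 to 0.32 for Slc50a1, -0.41 to 0.20 for Slc6a8, -0.31 to 0.26 for Slc35a4, -0.34 to 0.32 for Slc7a5, -1.43 to 0.016 for Slc29a1, -0.52 to 0.10 for Slc11a2, -0.21 to 0.51 for Slc39a1, -0.35 to 0.18 for Slc4a1ap and -0.63 to 0.14 for Slc44a4.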
